A study of Mus musculus with 4 samples.

Results

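The lung RNA-Seq table was examined for 36 genes of the non-collagen extracellular matrix and its crosslinking enzymes, out of 17780 genes listed. The genes were taken by symbol from a list of elastic fibre, glycoprotein, proteoglycan, basement membrane and lysyl oxidase genes, and all 36 were found once each. Lungs came from male C57BL/6J mice, bought at 6 to 7 weeks of age, that were dosed orally 5 times per week for 4 weeks. The vehicle group received carboxymethylcellulose alone, the amiodarone group 300 mg per kg, the dabigatran group 60 mg per kg, and the amiodarone + dabigatran group both drugs at these doses. Amiodarone is an antiarrhythmic drug known for lung toxicity, and dabigatran is an inhibitor of thrombin. Each group was represented by 1 library of left lung poly(A)+ RNA. The methods date the tissue to day 26 and the labels to 28 days. The study asked whether dabigatran changes what amiodarone does to the lung, with gene families of inflammation and fibrosis in view.

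The matrix of the lung holds elastic fibres, which let the alveolar wall recoil. In these fibres elastin is laid down on fibrillin microfibrils with the help of fibulins and is crosslinked by lysyl oxidases. Adhesive and matricellular glycoproteins link cells to the fibres, small proteoglycans bind collagen and set its fibril diameter, and laminins, nidogen and perlecan build the basement membrane under epithelium and endothelium. Many of these genes are transcribed by fibroblasts, smooth muscle cells and pericytes, and several are known to increase in fibrotic lung.

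Levels are given as FPKM, reads scaled to transcript length in kilobases and to depth. These can be compared between genes within a library. Between libraries they also depend on the make-up of the RNA, and rescaling by the median ratio over genes was run as an alternative. The 4 libraries held between 17498486 and 18903401 estimated reads, and a matrix gene had between 58 and 39495 reads in a library. A ratio between 2 libraries is given with its 95% counting interval (exact Clopper-Pearson, from the reads of both libraries). Such an interval covers counting error only: sequenced fragments are not independent molecules, and no group had a second library from which to take the spread between animals. No p-value is therefore given, and a statement about a drug is a statement about the library of that group. A difference was counted as beyond counting error where the interval left out a ratio of 1. It was called where it reached 1.5-fold on the log2(FPKM + 1) scale, which understates the change of low genes. Calls were counted over 13183 genes that averaged 1 FPKM or more across libraries. Of the matrix genes 35 passed this filter. The other was Thbs2, which encodes thrombospondin 2, at 0.58 FPKM in the vehicle library, 0.53 with amiodarone, 0.73 with dabigatran and 0.58 with both drugs.

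Amiodarone went with lower levels of most of the matrix genes, both against vehicle and when the amiodarone + dabigatran library was set against dabigatran alone. In bulk tissue fewer cells of a type and less RNA per cell cannot be told apart. A small set went the other way. Eln, Vcan and Lox were higher beyond counting error in both of these pairs, or 8.57% of the 35 against 10.4% of all genes, so that their number is no more than the background. Mfap2 was 1.71 times its vehicle level with amiodarone alone. Summed over the 36 genes, the level was 3143 FPKM in the vehicle library, 2649 with amiodarone, 3511 with dabigatran and 2639 with both drugs. The sum with amiodarone was 0.843 times that with vehicle, and the sum with amiodarone + dabigatran was 0.752 times that with dabigatran. The list took 0.873% of all estimated reads in the vehicle library and 0.731%, 0.973% and 0.744% in the amiodarone, dabigatran and amiodarone + dabigatran libraries. Sparc, Bgn, Mfap4 and Sparcl1 were the 4 most abundant genes in all 4 libraries and together made up between 59.9% and 62.5% of the sum.

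**Figure D1:**
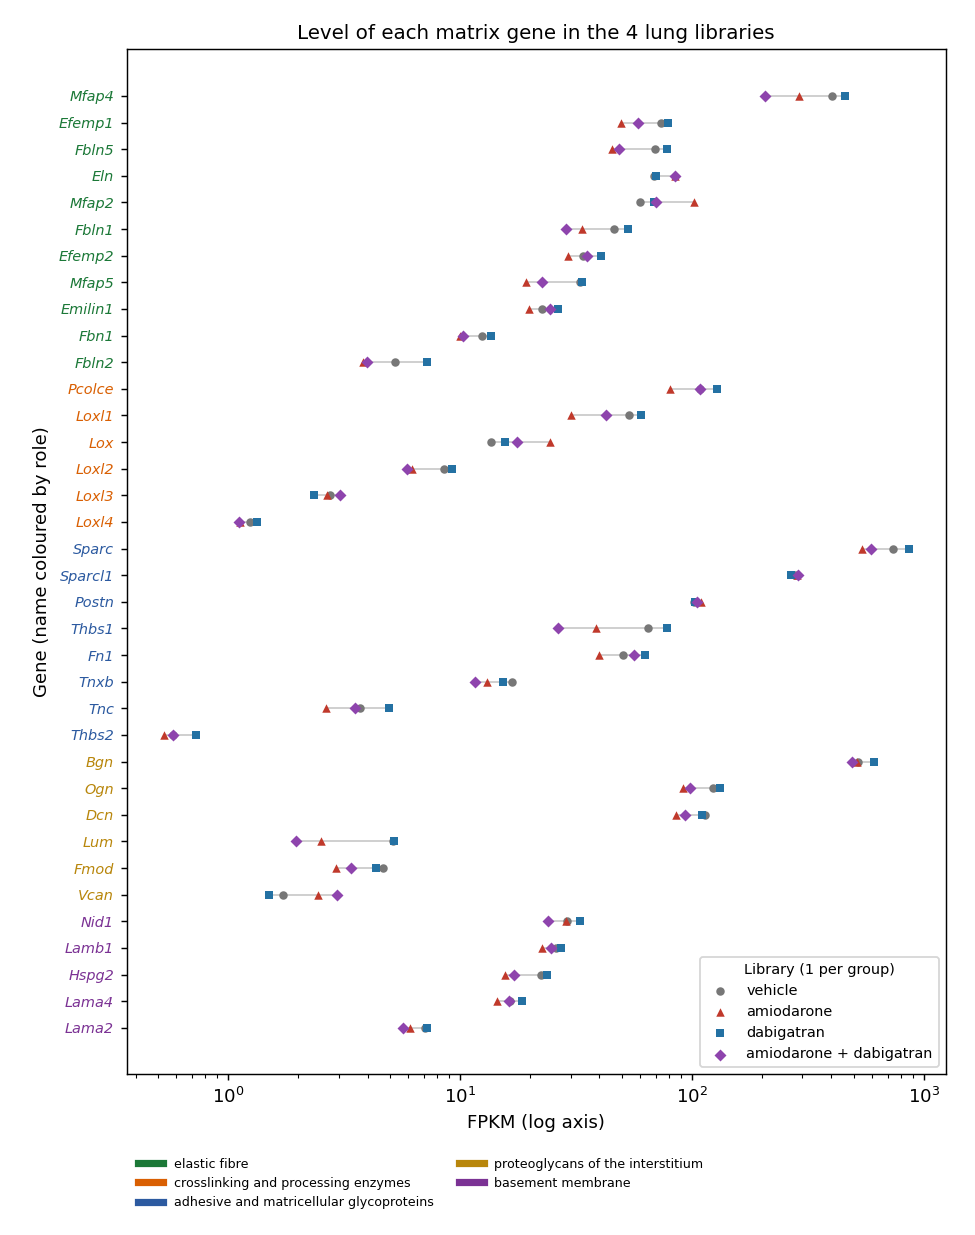
Level of each of the 36 genes in the 4 lung libraries, in FPKM on a log axis, with 1 symbol per library and a grey line from the lowest to the highest value. Genes are ordered by role and by level with vehicle. In most rows the red triangle (amiodarone) and the purple diamond (amiodarone + dabigatran) lie to the left of the grey circle (vehicle) and the blue square (dabigatran), and in the rows of Eln, Lox, Mfap2 and Vcan they lie to the right.

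Promoter sequences were available for 23 of the 36 genes, as 30 windows of 300 bases that run from 250 bases before a transcript start to 50 bases after it (RefSeq, GRCm38.p6). They are shown 5′ to 3′ on the strand of the gene for 3 genes that stand for the patterns below: Mfap2, higher with amiodarone alone, Vcan, higher in both libraries with amiodarone, and Fbln5, lower in both. Capitals mark matches, on either strand, to the GC box GGGCGG, the TEAD element GGAATG, the AP-1 element TGANTCA, the TATA box TATAAA or the CArG box. Only GC boxes were found in these 3 windows, 2 in each. Windows of a second start, not printed here, had no match for Fbln5 and a TEAD element but no GC box for Mfap2. The printed windows are chr4:141010431-141010730 on the plus strand for Mfap2, chr13:89742463-89742762 on the minus strand for Vcan and chr12:101819070-101819369 on the minus strand for Fbln5.
Mfap2: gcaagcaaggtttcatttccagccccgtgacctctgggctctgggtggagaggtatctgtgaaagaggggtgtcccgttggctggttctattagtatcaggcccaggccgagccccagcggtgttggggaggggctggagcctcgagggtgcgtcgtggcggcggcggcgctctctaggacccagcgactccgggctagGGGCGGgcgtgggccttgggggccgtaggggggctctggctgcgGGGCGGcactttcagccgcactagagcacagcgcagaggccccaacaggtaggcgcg
Vcan: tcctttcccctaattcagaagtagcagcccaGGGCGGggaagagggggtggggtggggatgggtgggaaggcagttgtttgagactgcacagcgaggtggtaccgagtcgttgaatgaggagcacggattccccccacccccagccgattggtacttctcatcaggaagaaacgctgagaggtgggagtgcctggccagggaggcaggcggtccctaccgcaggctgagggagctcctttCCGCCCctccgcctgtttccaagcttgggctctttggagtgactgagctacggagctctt
Fbln5: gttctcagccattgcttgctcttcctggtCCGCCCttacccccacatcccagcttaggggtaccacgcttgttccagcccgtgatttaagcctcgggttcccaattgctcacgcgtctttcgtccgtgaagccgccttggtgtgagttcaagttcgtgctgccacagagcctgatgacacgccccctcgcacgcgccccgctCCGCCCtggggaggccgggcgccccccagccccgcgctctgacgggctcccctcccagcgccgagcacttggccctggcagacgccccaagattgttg

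The GC box was held by 19 of the 30 windows of matrix genes and by 35.7% of all 32851 promoter windows. The TATA box was held by 5 of the 30, in Ogn, Postn, Thbs2 and Tnc, and by 13.6% of all windows. The TEAD element was held by 3 of the 30 (Nid1, Ogn and a second start of Mfap2; 14.7% of all), the AP-1 element by 2 (Efemp1 and Tnxb; 7.81%) and the CArG box by 1 (Lama2; 1.63%). A match is a string of letters and not a bound site.

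The elastic fibre genes showed both patterns. Eln, which encodes elastin, lies on chromosome 5 of GRCm38.p6 from 134702595 to 134747368 and had 68.6 FPKM in the vehicle library, 84.8 with amiodarone, 70.0 with dabigatran and 84.3 with both drugs. Both libraries with amiodarone were above both without it. The ratio was 1.24 (95% counting interval 1.19 to 1.29) for amiodarone over vehicle and 1.20 (1.16 to 1.25) for amiodarone + dabigatran over dabigatran. Mfap2 encodes a small microfibril glycoprotein, MAGP-1, and lies on chromosome 4 from 141010424 to 141015976. It had 59.9 FPKM in the vehicle library, 102 with amiodarone, 68.6 with dabigatran and 70.3 with both drugs. The amiodarone library stood above the other 3, at 1.71 times vehicle (1.58 to 1.84), while the ratio over dabigatran was 1.03 (0.948 to 1.11), within counting error.

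Mfap5 encodes the related glycoprotein MAGP-2 and was lower where Mfap2 was higher. It had 33.0 FPKM in the vehicle library, 19.2 with amiodarone, 33.7 with dabigatran and 22.6 with both drugs, a ratio of 0.581 (0.515 to 0.656) for amiodarone over vehicle. Fbln5 encodes fibulin-5, which tethers elastin to microfibrils and cell surfaces, and lies on chromosome 12 from 101746565 to 101819119. Its level was 69.3 FPKM in the vehicle library, 45.1 with amiodarone, 78.4 with dabigatran and 48.7 with both drugs. Both libraries with amiodarone were below both without it, with ratios of 0.650 (0.615 to 0.688) and 0.621 (0.589 to 0.654). Mfap4, a microfibril-associated glycoprotein gene and the most abundant of the elastic fibre group, had 403, 289, 457 and 207 FPKM in the same order. Here the lowest library was the one with both drugs, and the ratio was 0.717 (0.696 to 0.738) over vehicle and 0.454 (0.440 to 0.468) over dabigatran.

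The other fibulin genes were also lower. Fbln1 had 46.1 FPKM in the vehicle library, 33.5 with amiodarone, 52.9 with dabigatran and 28.7 with both drugs, and Fbln2 had 5.26, 3.83, 7.24 and 3.97 FPKM. In both genes the difference was larger over dabigatran, at ratios of 0.541 (0.508 to 0.577) and 0.548 (0.477 to 0.630), than over vehicle, at 0.726 and 0.728. Efemp1, which encodes fibulin-3, had 73.6, 49.3, 79.0 and 58.4 FPKM. Efemp2, which encodes fibulin-4, an adaptor that brings lysyl oxidase to elastin, had 34.1, 29.2, 40.8 and 35.5 FPKM, so that its 2 libraries with amiodarone were not both below the 2 without. Fbn1, which encodes fibrillin-1, the backbone of the microfibril, was at 12.5, 9.98, 13.6 and 10.3 FPKM. Emilin1, an elastin-associated glycoprotein gene, was at 22.5, 19.8, 26.6 and 24.4 FPKM. Of the 11 elastic fibre genes, 9 were lower beyond counting error in each amiodarone pair, against 30.0% of all genes for amiodarone over vehicle and 23.3% in the other pair. The summed level of the group was 0.828 times vehicle with amiodarone, and with amiodarone + dabigatran 0.641 times dabigatran.

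The lysyl oxidases oxidize lysines of elastin and collagen so that the chains can crosslink, and the 5 genes of the family did not move together. Lox, on chromosome 18 from 52516060 to 52529867, had 13.6 FPKM in the vehicle library, 24.4 with amiodarone, 15.6 with dabigatran and 17.6 with both drugs. The amiodarone library was the highest, at 1.80 times vehicle (1.67 to 1.93), which was the highest ratio of the list for amiodarone alone, and the ratio over dabigatran was 1.13 (1.05 to 1.22). Loxl1, the family member tied to elastic fibre upkeep, lies on chromosome 9 from 58287723 to 58313212. It had 53.4 FPKM in the vehicle library, 30.2 with amiodarone, 60.6 with dabigatran and 42.6 with both drugs. Loxl1 was more abundant than Lox in all 4 libraries, and their levels were closest with amiodarone alone. Its ratio was 0.566 (0.534 to 0.599) over vehicle and 0.703 (0.669 to 0.740) over dabigatran.

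Loxl2, whose enzyme acts on basement membrane collagen, had 8.54, 6.22, 9.23 and 5.94 FPKM with vehicle, amiodarone, dabigatran and both drugs. Both libraries with amiodarone were lower, at ratios of 0.728 (0.654 to 0.811) and 0.644 (0.578 to 0.716). Loxl3 had 2.76, 2.67, 2.34 and 3.04 FPKM in the same order. It was higher beyond counting error only over dabigatran, at 1.30 (1.06 to 1.60), and its intervals are wide because each library held between 166 and 230 reads. Loxl4 was at 1.24, 1.13, 1.34 and 1.12 FPKM, with differences within counting error in all 4 comparisons. Pcolce encodes an enhancer of the proteinase that trims procollagen. It had 108 FPKM in the vehicle library, 80.4 with amiodarone, 129 with dabigatran and 109 with both drugs, and only the amiodarone library stood below vehicle.

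Among the glycoproteins, Thbs1 showed the widest range of the whole list, 2.93-fold from lowest to highest library. It encodes thrombospondin 1, a matricellular protein that can activate latent TGF-β, and lies on chromosome 2 from 118111876 to 118127133. Its level was 64.7 FPKM in the vehicle library, 38.5 with amiodarone, 77.9 with dabigatran and 26.6 with both drugs. Both libraries with amiodarone were below both without it, at ratios of 0.596 (0.573 to 0.619) and 0.341 (0.327 to 0.356). Sparc encodes a collagen-binding matricellular protein and was the most abundant gene of the list. It had 737 FPKM in the vehicle library, 540 with amiodarone, 860 with dabigatran and 594 with both drugs, with ratios of 0.732 (0.720 to 0.744) and 0.691 (0.681 to 0.702). Its relative Sparcl1 did not follow, at 279, 285, 269 and 288 FPKM, a range of 1.07-fold, the narrowest of the list.

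Fn1, which encodes fibronectin, had 50.3 FPKM in the vehicle library, 39.8 with amiodarone, 62.7 with dabigatran and 56.1 with both drugs. The amiodarone library was the lowest, and the one with both drugs lay between vehicle and dabigatran. Tnc, the tenascin-C gene, which is known to be induced in injured tissue, was low in all libraries, at 3.70, 2.65, 4.94 and 3.52 FPKM. Tnxb, the tenascin-X gene, had 16.7, 13.1, 15.4 and 11.6 FPKM. Postn, which encodes periostin, a protein known to rise in fibrotic lung, had 102, 110, 103 and 105 FPKM. Its ratio of amiodarone over vehicle was 1.08 (1.04 to 1.12) and that over dabigatran 1.02 (0.987 to 1.06).

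Vcan, the gene for the large proteoglycan versican, which is known to build a loose provisional matrix, was the proteoglycan gene that was higher. It lies on chromosome 13 from 89655309 to 89743027 and had 1.72 FPKM in the vehicle library, 2.44 with amiodarone, 1.51 with dabigatran and 2.96 with both drugs, from 191, 283, 178 and 382 reads. Both libraries with amiodarone were above both without it, at ratios of 1.42 (1.18 to 1.71) and 1.96 (1.64 to 2.36). Lum, the gene for lumican, a small proteoglycan of collagen fibrils, went furthest the other way. It lies on chromosome 10 from 97565501 to 97572703 and had 5.14 FPKM in the vehicle library, 2.51 with amiodarone, 5.18 with dabigatran and 1.96 with both drugs, from 182, 95, 186 and 75 reads. Its ratios were 0.488 (0.377 to 0.629), the lowest of the list for amiodarone alone, and 0.378 (0.285 to 0.497).

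The other small proteoglycan genes differed less. Dcn, the decorin gene, had 114, 85.7, 111 and 93.4 FPKM with vehicle, amiodarone, dabigatran and both drugs, and Ogn, the osteoglycin gene, had 124, 91.9, 132 and 98.0 FPKM. Fmod, the fibromodulin gene, was at 4.68, 2.91, 4.35 and 3.39 FPKM. In these 3 genes both libraries with amiodarone were below both without it. Bgn, the biglycan gene, was the second most abundant gene of the list, at 523, 516, 608 and 491 FPKM. Its ratio of amiodarone over vehicle was 0.987 (0.969 to 1.01), within counting error and on the other side of 1 after rescaling by the median ratio over genes, and that over dabigatran was 0.808 (0.793 to 0.822).

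All 5 basement membrane genes were lower in each pair by less than 1.5-fold (37.7% of all genes were lower by any amount in both pairs), except that Nid1 was level with vehicle (0.02 on the log2 scale) after rescaling. Hspg2, which encodes perlecan, had 22.4 FPKM in the vehicle library, 15.7 with amiodarone, 23.8 with dabigatran and 17.2 with both drugs, ratios of 0.702 (0.674 to 0.731) and 0.723 (0.696 to 0.752). The laminin chain genes differed less. Lama2 was at 7.10, 6.11, 7.23 and 5.70 FPKM, Lama4 at 16.4, 14.5, 18.5 and 16.3 FPKM and Lamb1 at 25.9, 22.6, 27.2 and 24.7 FPKM in the same order. Nid1, which encodes nidogen-1, the linker between laminin and collagen IV networks, had 29.1, 28.6, 33.0 and 23.9 FPKM. Its ratio was within counting error over vehicle, 0.980 (0.932 to 1.03), and 0.724 (0.688 to 0.761) over dabigatran.

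The counts of genes were read against those of all 13183 genes. In amiodarone against vehicle, 29 of the 35 matrix genes were lower by any amount, against 58.6% of all genes. Of the 35, 25 were lower beyond counting error (all genes 30.0%) and 5 were higher beyond it (19.5%). The list is more deeply read than most genes, with a median of 2305 reads against 563, so smaller differences pass counting error in it. At 1.5-fold, 5 genes were lower (Fbln5, Mfap5, Loxl1, Thbs1 and Lum), or 14.3% of the list against 3.75% of all genes. Lox and Mfap2 were the 2 genes 1.5-fold higher, or 5.71% against 4.13%, which is near the background. On the log2(FPKM + 1) scale the list had a median difference of -0.33, and all genes one of -0.04. Just short of the lower threshold lay Efemp1 at -0.57, and just past it Fbln5 at -0.61. Fmod, at a ratio of 0.622 (0.503 to 0.766), lay at -0.54 and passed the threshold with a pseudocount of 0.1, at -0.67. Rescaling by the median ratio over genes put Fbln5 at -0.56, short of the threshold, and left 26 rather than 29 genes lower by any amount.

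The amiodarone + dabigatran and dabigatran libraries form a second pair that differs by amiodarone and shares no library with the first. There 28 of the 35 genes were lower by any amount (all genes 52.4%), 27 were lower beyond counting error (23.3%) and 5 were higher beyond it (19.5%). At 1.5-fold, 6 were lower (Fbln1, Fbln2, Fbln5, Mfap4, Thbs1 and Lum), against 1.91% of all genes, and 1 was higher (Vcan), against 3.14%. Loxl2, at a ratio of 0.644 (0.578 to 0.716), lay at -0.56 and passed the lower threshold with a pseudocount of 0.1, at -0.63. The median was -0.31 over the list and -0.01 over all genes. In both pairs together, 28 of the 35 genes were lower by any amount (all genes 37.7%), and 25 were lower beyond counting error (13.4%). Eln, Lox and Vcan were the 3 genes higher beyond counting error in both (10.4%). Fbln5, Thbs1 and Lum were 1.5-fold lower in both (0.857% of all genes), or 2 of them after rescaling, and no matrix gene was 1.5-fold higher in both (2.08%). Both libraries with amiodarone were below both without it for 24 of the 35 genes, against 31.3% of all genes. They were above both for 6 genes, Eln, Mfap2, Lox, Postn, Sparcl1 and Vcan, against 21.9%.

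**Figure D2:**
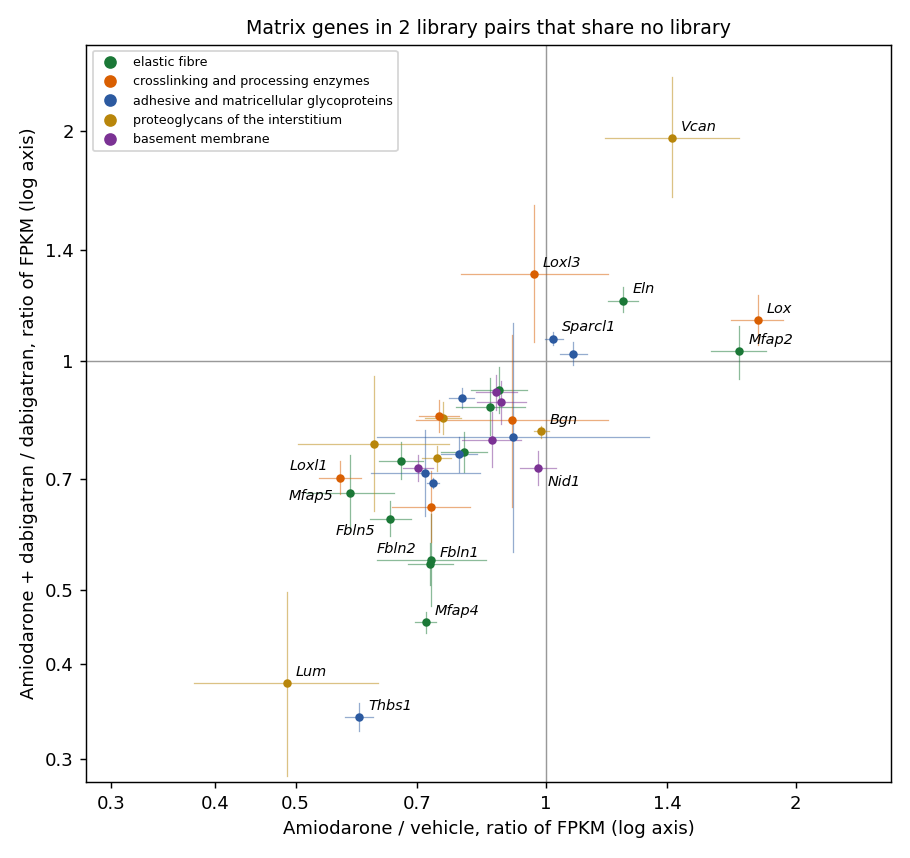
Ratio of FPKM of amiodarone over vehicle (horizontal, log axis) and of amiodarone + dabigatran over dabigatran (vertical, log axis) for each of the 36 genes, coloured by role, with 95% counting intervals as lines and grey lines at a ratio of 1. Most genes lie at the lower left, with Thbs1 (0.596 and 0.341) and Lum (0.488 and 0.378) farthest out, and Eln, Lox and Vcan lie in the upper right with both intervals above 1.

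Dabigatran alone gave small differences, mostly upward. Of the 35 genes 6 were lower than with vehicle by any amount (Loxl3, Tnxb, Sparcl1, Dcn, Fmod and Vcan), against 49.4% of all genes. Higher beyond counting error were 21 genes (all genes 15.2%), and lower beyond it were 2, Tnxb and Sparcl1 (13.4%). The median was 0.11 over the list and 0.00 over all genes. No matrix gene reached 1.5-fold in either direction, a size that 0.402% of all genes reached upward and 0.372% downward. Among these 35 the highest ratios were 1.38 (1.21 to 1.57) for Fbln2, 1.34 (1.17 to 1.52) for Tnc and 1.25 (1.21 to 1.29) for Fn1. The summed level of the list was 1.12 times vehicle.

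When dabigatran was added to amiodarone, the list did not move in a common direction. Compared with amiodarone alone, 14 of the 35 genes were lower by any amount (all genes 41.7%), 16 were higher beyond counting error (21.1%) and 9 were lower beyond it (14.9%). The median was 0.09 over the list and 0.03 over all genes, and the summed level was 0.996 times that with amiodarone. None reached 1.5-fold, which 0.971% of all genes reached upward and 1.12% downward. Among the genes that were lower with amiodarone, Loxl1 had a ratio of 1.41, beyond counting error, Fn1 of 1.41 (1.36 to 1.46), Pcolce of 1.36 (1.29 to 1.43) and Tnc of 1.33 (1.14 to 1.55). With both drugs, Fn1 was above vehicle (56.1 against 50.3 FPKM) and Loxl1 below it (42.6 against 53.4 FPKM). Pcolce (109 against 108 FPKM) and Tnc (3.52 against 3.70 FPKM) were near vehicle, and no interval was computed between these libraries. Lox at 0.719 (0.673 to 0.768) and Mfap2 at 0.688 (0.641 to 0.737), the 2 genes 1.5-fold higher with amiodarone, were lower, and both stayed above vehicle. Eln was at 0.994 (0.958 to 1.03) and Vcan at 1.21 (1.04 to 1.42). Thbs1 at 0.689 (0.657 to 0.722) and Mfap4 at 0.717 (0.693 to 0.742) were lower with amiodarone than with vehicle and lower again with both drugs. The amiodarone library is shared by this comparison and the one with vehicle, so that a high or low value in it moves the 2 ratios in opposite directions.

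**Figure D3:**
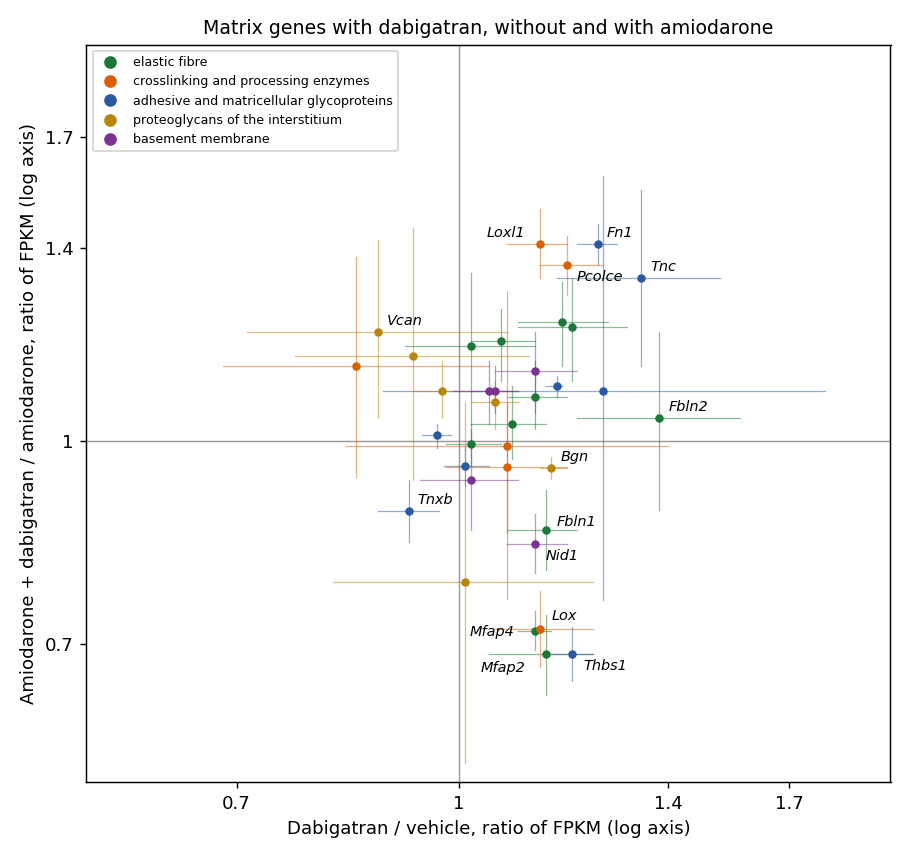
Ratio of FPKM of dabigatran over vehicle (horizontal, log axis) and of amiodarone + dabigatran over amiodarone (vertical, log axis) for the 36 genes, coloured by role, with 95% counting intervals as lines and grey lines at a ratio of 1. Thbs1, Mfap2, Mfap4, Lox, Nid1, Fbln1 and Bgn lie below 1 on the vertical axis and above 1 on the horizontal axis, and Loxl1, Fn1, Pcolce and Tnc lie above 1 on both.

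For 7 genes (Fbln1, Mfap2, Mfap4, Lox, Thbs1, Bgn and Nid1) dabigatran went with a higher level without amiodarone and a lower level with it, both beyond counting error. Among all genes 8.41% had such opposite differences, in either order. The ratio of the 2 ratios, with a 95% interval from the Poisson variance of the 4 read counts, was lowest for Thbs1 at 0.572 (0.541 to 0.606), Mfap2 at 0.600 (0.539 to 0.668), Lox at 0.628 (0.566 to 0.697) and Mfap4 at 0.633 (0.606 to 0.661). It left out 1 for 18 of the 36 genes, on the lower side for 10 and on the upper side for 8, among them Loxl1 at 1.24 (1.15 to 1.34). For the other 18, Eln, Fbln5 and Hspg2 among them, the interval held 1. The share of all genes was not computed for this ratio, and the list is more deeply read than most genes. The number of genes is therefore not read as a trait of the list.

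**Figure D4:**
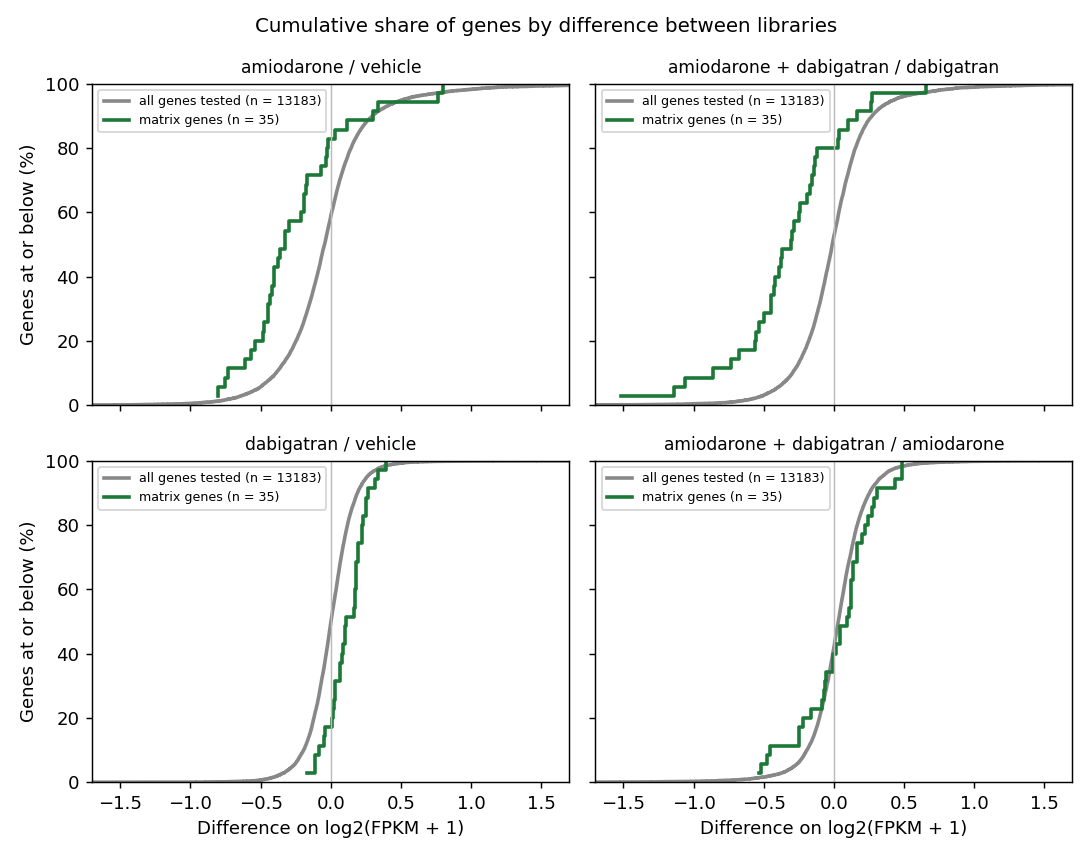
Cumulative share of genes, in percent, by their difference on the log2(FPKM + 1) scale, with 1 panel per comparison, for the 35 matrix genes (green) and all 13183 genes tested (grey). The green line lies to the left of the grey line over most of its length in both upper panels, which compare libraries with and without amiodarone (medians -0.33 against -0.04 and -0.31 against -0.01) and to the right of it for dabigatran over vehicle (0.11 against 0.00).

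A second list of 82 symbols of other non-collagen matrix genes and matrix enzymes was examined in the same way, with Cyr61 and Ctgf entered under an older and a newer symbol each. It was chosen with earlier results of these data known, so its counts beside the shares of all genes only describe the list. Of the symbols 77 were found, and 64 genes passed the filter. In amiodarone against vehicle 39 of the 64 were lower by any amount (all genes 58.6%), with a median of -0.15, 8 genes 1.5-fold lower (3.75%) and 4 higher (4.13%). In amiodarone + dabigatran against dabigatran 49 were lower (52.4%), with a median of -0.21, 11 genes 1.5-fold lower (1.91%) and 3 higher (3.14%). With dabigatran alone 18 were lower than with vehicle (49.4%), with a median of 0.09 and none at 1.5-fold in either direction (0.372% lower, 0.402% higher). Between amiodarone + dabigatran and amiodarone 35 were lower (41.7%), with a median of -0.02, none 1.5-fold higher (0.971%) and 4 lower (1.12%), where the 35 genes of the first list had none. These were Aspn, Has1, Ctgf and Cyr61, named after their values were seen, at ratios of 0.554 (0.453 to 0.675), 0.470 (0.301 to 0.721), 0.623 (0.592 to 0.655) and 0.610 (0.577 to 0.645). Lower by 1.5-fold in both amiodarone pairs were 4 genes. Cyr61, a matricellular CCN gene, had 189 FPKM in the vehicle library, 89.9 with amiodarone, 263 with dabigatran and 54.8 with both drugs, the same order of libraries as Thbs1. Wisp2, another CCN gene, had 40.3, 16.9, 36.1 and 23.6 FPKM, Ltbp3, which encodes a binding protein of latent TGF-β, had 56.4, 36.8, 59.5 and 36.5 FPKM, and Vwa1, a perlecan partner gene, had 4.21, 2.15, 5.06 and 2.77 FPKM. Higher by 1.5-fold in both pairs were Spp1, the osteopontin gene, which macrophages also express, at 47.7, 107, 35.9 and 96.4 FPKM, and Tgfbi, a TGF-β-induced adhesion gene also expressed by monocytes and macrophages, at 29.5, 48.3, 25.1 and 46.5 FPKM. The 3 most abundant genes of this list were Mgp, with 1907, 1817, 2103 and 1981 FPKM, Igfbp7, with 600, 611, 697 and 499 FPKM, and Ltbp4, with 226, 157, 226 and 136 FPKM.

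Marker genes of other cell types also differed between the libraries. Markers of lung were present in all libraries, with the 6 alveolar epithelial markers summing to between 27110 and 29047 FPKM. The 8 macrophage markers summed to 176 FPKM in the vehicle library, 939 with amiodarone, 201 with dabigatran and 1171 with both drugs, with 7 of 8 higher in each amiodarone pair. Most of this sum was Chil3, at 90.3, 731, 113 and 940 FPKM in the same order. Fabp1 was the marker that was lower in both pairs, at 5.79, 0.25, 5.46 and 1.58 FPKM. The 6 smooth muscle markers summed to 598, 376, 568 and 407 FPKM in the same order, and 0 of 6 were higher in either amiodarone pair. The 7 fibroblast markers outside the matrix summed to 2078, 2476, 1999 and 2312 FPKM, with 2 of 7 higher with amiodarone and 4 of 7 in the other pair. Most of the sum was Inmt, at 1514, 1377, 1337 and 1496 FPKM, and Ly6a, at 399, 915, 468 and 624 FPKM. The 2 that were higher with amiodarone than with vehicle were Ly6a and Dpep1 (78.4 against 55.0 FPKM). The fibroblast receptor gene Pdgfra was at 42.0, 39.1, 43.5 and 45.1 FPKM and Tcf21 at 49.1, 48.0, 62.4 and 58.2 FPKM. By quantitative RT-PCR of individual mice, in contrast, the paper reported Pdgfra increased with amiodarone and this increase inhibited by dabigatran co-treatment. The 6 pericyte markers summed to between 142 and 163 FPKM. The 5 mesothelial markers summed to 328, 236, 299 and 338 FPKM, with 0 of 5 higher with amiodarone and 4 of 5 in the other pair. The 5 cardiac muscle markers summed to 1317, 699, 930 and 626 FPKM, with 0 of 5 higher in either pair. The 7 endothelial markers summed to 1223, 1403, 1428 and 1212 FPKM, with 6 of 7 higher with amiodarone and 1 of 7 in the other pair. The 4 red blood cell markers summed to 11387, 15746, 12780 and 6319 FPKM and the 4 adipocyte markers to 97.7, 48.5, 142 and 71.6 FPKM. The 3 B lymphocyte markers summed to 117, 39.3, 97.2 and 69.2 FPKM. The 4 airway epithelial markers summed to 130355, 77878, 104525 and 101891 FPKM, nearly all of it Scgb1a1, at 124168, 73994, 99032 and 97786 FPKM. The leukocyte marker Ptprc lay between 19.2 and 24.2 FPKM, and the 4 cartilage markers, which mark tissue outside the lung parenchyma, summed to at most 0.440 FPKM. No marker list had a marker at 0 in all libraries. The part of these shifts in the matrix values was not tested.

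Exons of 14 of the 36 genes overlap a gene on the opposite strand in GENCODE M21, by between 0.0246% and 20.1% of the matrix gene's exonic bases, the highest for Fbn1 and then Loxl3 at 11.6%. Whether reads were counted by strand is not given in the sources used here, so reads of such partners cannot be told apart from those of the matrix gene in the overlapping bases.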

How the data were processed

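Poly(A)+ RNA of left lung was sequenced with DNBseq. The authors used HISAT 2.0.4 for the genome (GRCm38.p6) and Bowtie2 2.2.5 for the transcripts, and the deposited table holds estimated counts per gene from RSEM and normalized values. The deposited values were read as FPKM, because reads per unit of value differed between the amiodarone and vehicle libraries by 1.07, as did the total reads. Annotation and strand setting are not given in the sources used here. Another 8 columns, averages over 2 libraries, were not used.

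Groups were taken from the labels. Ratios are of FPKM, and 95% Clopper-Pearson intervals were computed from counts rounded to whole reads (scipy 1.17.1). With 1 library per group, no test across animals was run. List counts used a pseudocount of 1, a mean of at least 1 FPKM and a 1.5-fold threshold. A count of 0 allows up to 3 reads, at most 1.71e-05% of a library. The procedure was tested on simulated Poisson counts with known changes larger than the 1.5-fold threshold. These held no spread between animals, so the test says nothing about that spread. Coordinates were matched for all 36 genes by gene identifier. All 36 genes are named. From the other matrix genes, those 1.5-fold in the same direction in both amiodarone pairs and the 3 most abundant are named by rule. Aspn, Has1, Ctgf, Omd, Ecm2 and Prelp are named outside this rule, after their values were seen. The genes and lists were chosen with earlier results of these data known. Alternatives were other pseudocounts, filters, thresholds and scalings.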

Additional observations from a re-analysis of the deposited data

Results flagged for a closer look

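The difference between libraries with and without dabigatran had opposite directions in the absence and presence of amiodarone for 7 genes, each beyond counting error. With 1 library per group, whether the 2 differences differ between animals was not tested. Against vehicle, dabigatran alone was at 1.15 times for Fbln1, 1.15 for Mfap2, 1.13 for Mfap4, 1.14 for Lox, 1.20 for Thbs1, 1.16 for Bgn and 1.13 for Nid1. Against amiodarone, amiodarone + dabigatran was at 0.856 times for Fbln1, 0.688 for Mfap2, 0.717 for Mfap4, 0.719 for Lox, 0.689 for Thbs1, 0.953 for Bgn and 0.835 for Nid1. For Mfap2 and Lox the library with amiodarone alone stood above the other 3, and for Mfap4, Thbs1, Fbln1, Nid1 and Bgn the library with both drugs was the lowest.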

How the results depend on the processing

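No paired analysis was possible because each group has 1 library. The thresholds changed the counts most. At 2-fold on the log2(FPKM + 1) scale, no gene was higher or lower in amiodarone against vehicle. In amiodarone + dabigatran against dabigatran 0 were higher and 3 lower (Thbs1, Mfap4 and Lum), and 0 were lower in both pairs. By its ratio of FPKM, without the added 1, Lum was more than 2-fold lower in both pairs, at 0.488 and 0.378. The share of all genes was not taken at 2-fold, so these counts cannot be set against a background. By the counting interval in place of 1.5-fold, amiodarone had 5 genes higher and 25 lower, followed by 5 and 27 in amiodarone + dabigatran against dabigatran, 21 and 2 with dabigatran, and 16 and 9 when dabigatran was added to amiodarone. A filter at a mean of 5 FPKM left out Vcan, so that 0 genes were higher in amiodarone + dabigatran against dabigatran. Median-ratio rescaling, which used 12728 genes at or above 1 FPKM in each library, moved amiodarone against vehicle by 0.05 on the log2 scale. It gave 5 rather than 8 other matrix genes lower with amiodarone, and a ratio of summed levels of 0.872 rather than 0.843. Without Sparc that ratio was 0.877. The medians kept their sign under every alternative run, between -0.38 and -0.28 for amiodarone, -0.37 and -0.30 in amiodarone + dabigatran against dabigatran, 0.11 and 0.17 for dabigatran, and 0.04 and 0.09 when dabigatran was added to amiodarone. Counts of genes lower by any amount, an alternative chosen after seeing the data, stayed within 1.5 times under rescaling and with read counts. Of 432 single values under a pseudocount of 0.1, rescaling or read counts, 0 changed direction among differences beyond counting error and 10 moved beyond it.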

Other observations

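Some matrix genes lie beside each other in the genome, and neighbours did not share 1 pattern. These neighbours were chosen after their values were seen. On chromosome 13 of GRCm38.p6 the leucine-rich repeat matrix genes Ecm2 (49504810 to 49532789), Aspn (49544443 to 49567565), Omd (49582462 to 49592612) and Ogn (49608015 to 49624501) follow each other. Omd was higher in both libraries with amiodarone, at 1.36 FPKM in the vehicle library, 2.25 with amiodarone, 1.14 with dabigatran and 1.90 with both drugs. Its ratios were 1.65 (1.12 to 2.46) and 1.67 (1.10 to 2.56), short of 1.5-fold on the log2(FPKM + 1) scale. Its neighbour Ogn was lower in both, and Aspn was at 8.22, 6.59, 8.10 and 3.65 FPKM, lowest with both drugs. Ecm2 was at 8.33, 7.18, 7.15 and 6.14 FPKM. On chromosome 1, Prelp (133910304 to 133930102) and Fmod (134037254 to 134048280) were both lower in each amiodarone pair, Prelp at 193, 149, 216 and 179 FPKM. On chromosome 10, Dcn (97479500 to 97518163) and Lum lie near each other, and their ratios of amiodarone over vehicle were 0.752 (0.716 to 0.790) and 0.488 (0.377 to 0.629), with intervals that do not overlap.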
